A study of Mus musculus with 8 samples.

Results

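The NMDA receptor is a glutamate-gated channel of 4 subunits that passes calcium into the postsynaptic cell. The expression of its 7 subunit genes was described in cultured mouse hippocampal neurons treated with melanin-concentrating hormone (MCH) or vehicle. The 7 genes, *Grin1*, *Grin2a*, *Grin2b*, *Grin2c*, *Grin2d*, *Grin3a* and *Grin3b*, were taken as the complete family by name, and all 7 were found among the 45706 genes of the count table. *Grin1* was also followed through its 14 annotated transcripts. Hippocampal neurons from embryonic day 18 C57/Bl6 wild-type (*Wt*) mice received 1 µM MCH peptide or H2O as vehicle for 4 h, were collected at day in vitro 12 to 14, and were profiled by bulk RNA sequencing of polyadenylated RNA in 4 wells per treatment. Within each treatment, 2 separate cultures supplied 2 wells apiece, but the culture of each replicate number was not given in the sources used here, so replicate wells partly measure technical spread. Both groups carry a disease-model tag for Alzheimer's disease in their labels beside a wild-type genotype, and both groups received 5-fluoro-2′-deoxyuridine against glial growth.

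Each NMDA receptor needs GluN1 subunits, which *Grin1* encodes and which bind glycine or D-serine, together with GluN2 subunits (*Grin2a* to *Grin2d*), which bind glutamate. GluN2B prevails in the young forebrain and GluN2A joins it as synapses mature, whereas GluN2C and GluN2D are typical of the cerebellum, of glia and of interneurons. GluN3 subunits (*Grin3a* and *Grin3b*) bind glycine and lower the calcium permeability of receptors that contain them.

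The wells were read to between 26083936 and 31844861 counts. All 9 neuron markers were present, with a summed level of 7310 to 8292 CPM (counts scaled to a common library size), whereas *Sox10* and *Mog* were at 0 in all wells. The neuron sum was 7937 to 8292 CPM in replicates 1 and 2 of both treatments and 7310 to 7446 CPM in replicates 3 and 4. Summed astrocyte markers were 290 to 392 CPM in replicates 1 and 2 of both treatments and 1293 to 1457 CPM in replicates 3 and 4, summed oligodendrocyte lineage markers 57.3 to 67.9 and 126 to 147 CPM, and summed fibroblast and vessel markers 16.5 to 22.7 and 50.3 to 56.0 CPM. Microglial markers summed to 3.26 to 5.55 CPM. None of the marker sums separated MCH from vehicle. Inhibitory neuron markers summed to 2158 to 2858 CPM with vehicle and 2116 to 2661 CPM with MCH. By replicate number they summed to 2608 to 2858 CPM in replicates 1 and 2 and 2116 to 2377 CPM in replicates 3 and 4. All 7 of them had a lower fitted value with MCH, whereas all 6 astrocyte markers had a higher one. The astrocyte sum was lower with MCH in replicates 1 and 2 (321 and 290 CPM, against 392 and 348 CPM). In replicates 3 and 4 it was higher with MCH (1457 and 1398 CPM, against 1341 and 1293 CPM). None of these markers passed the test. Wells of the replicate numbers 1 and 2 thus stand apart from wells 3 and 4, in both treatments.

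*Grin1* lies on chromosome 2 of GRCm38, on the minus strand (chr2:25291181-25319187), and its messages differ in 3 coding places. These segments are printed because the *Grin1* results below are shares of messages with and without them. Sequences are from the GENCODE vM21 transcripts, 5′ to 3′. Capitals mark the alternative coding segment and lower case the 15 neighbouring bases of the adjoining exons, which stand only before the segment where it ends the reading frame.

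The N1 cassette is exon 4 of the 21 exons of *Grin1*-204 (chr2:25311343-25311405), holds 63 bases or 21 codons and adds a charged loop to the extracellular amino-terminal domain.
N1: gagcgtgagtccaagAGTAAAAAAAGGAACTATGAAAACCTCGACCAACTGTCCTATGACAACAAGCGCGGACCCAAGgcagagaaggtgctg
The C1 cassette is exon 19 of the 20 exons of *Grin1*-201 (chr2:25294438-25294548), holds 111 bases or 37 codons and codes for part of the intracellular tail.
C1: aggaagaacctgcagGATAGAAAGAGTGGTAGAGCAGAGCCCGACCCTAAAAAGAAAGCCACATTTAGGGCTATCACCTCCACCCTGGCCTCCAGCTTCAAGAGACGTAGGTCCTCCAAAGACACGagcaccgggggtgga
The last exon starts at one of 2 splice acceptors that lie 356 bases apart. The upstream acceptor gives the C2 end of 38 codons (chr2:25292371-25292484 without the stop codon).
C2: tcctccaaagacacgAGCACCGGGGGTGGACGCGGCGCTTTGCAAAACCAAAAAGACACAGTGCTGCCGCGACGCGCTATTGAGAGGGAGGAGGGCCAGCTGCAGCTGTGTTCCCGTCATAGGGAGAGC
The downstream acceptor gives the C2′ end of 22 codons (chr2:25292063-25292128 without the stop codon), which carries a PDZ-binding tail.
C2′: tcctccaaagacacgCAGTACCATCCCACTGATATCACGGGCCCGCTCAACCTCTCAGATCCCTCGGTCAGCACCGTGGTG

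By convention the forms are numbered GluN1-1 (C1 and C2), GluN1-2 (C2 without C1), GluN1-3 (C1 and C2′) and GluN1-4 (C2′ without C1), with the letter b for forms that hold N1 and a for those that do not. All 8 combinations are annotated as coding transcripts.

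**Figure D1:**
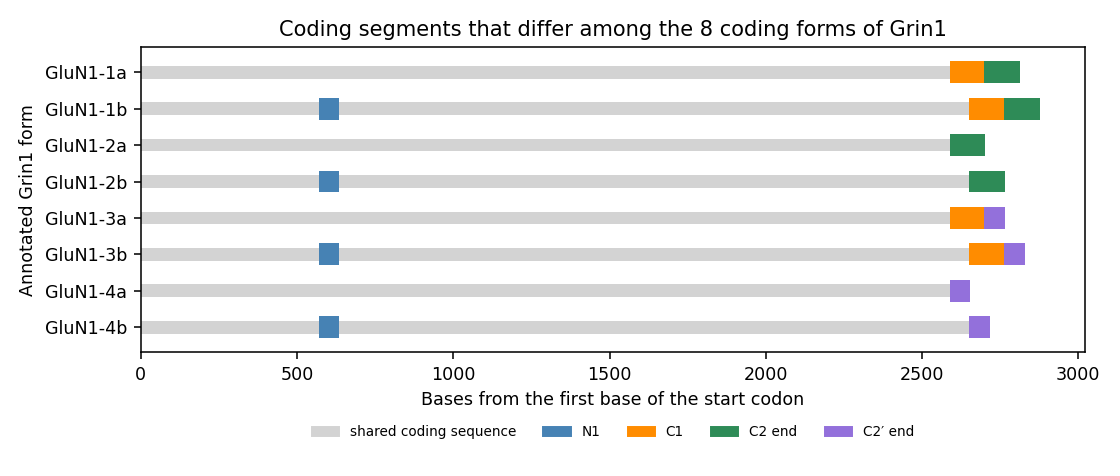
Coding sequence of the 8 annotated coding forms of *Grin1*, drawn to scale in bases from the start codon, with the N1, C1, C2 and C2′ segments coloured. The shortest form, GluN1-4a, has 2655 coding bases without the stop codon, and the longest, GluN1-1b, has 2877.

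Levels were first compared between genes as TPM, salmon's relative abundance of transcripts, which is scaled for length and depth. For this the transcripts shorter than 1000 bases were left out, because a 241-base *Grin2b* transcript with at most 9.24 estimated reads was given up to 33.3 TPM. On this scale *Grin1* had the highest level, with 306 ± 18.9 TPM (SD over the 8 wells). *Grin2b* followed with 39.5 ± 8.17 TPM and *Grin2a* with 17.1 ± 2.97 TPM. *Grin3a* stood at 8.77 ± 0.400 TPM and *Grin2d* at 7.02 ± 0.678 TPM, and *Grin2c* and *Grin3b* at 0.565 ± 0.347 and 0.114 ± 0.0581 TPM.

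*Grin1* thus held 80.7% of all subunit TPM (77.4% to 83.8% across wells), *Grin2b* 10.4%, *Grin2a* 4.50%, *Grin3a* 2.32% and *Grin2d* 1.86%. The TPM ranges over the 8 wells did not overlap between neighbours in this order, except for *Grin2c* and *Grin3b*. The *Grin3a* and *Grin2d* levels were the closest of the separated neighbours, with *Grin3a* 1.12 to 1.47 times *Grin2d* within a well. *Grin1* was 7.74 times *Grin2b* by their means, and *Grin2b* was 2.31 times *Grin2a* (1.99 to 2.54 within a well). The first of these ratios depends on the scaling for length. In counts, not scaled for length, *Grin1* had 17636 to 23035 per well and *Grin2b* 11857 to 24957.

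Next, MCH and vehicle wells were compared gene by gene in CPM, by the quasi-likelihood test of edgeR over the 14962 genes left after a filter on low counts, with *P* values adjusted after Benjamini and Hochberg. Of the 7 subunits, 6 passed the filter and *Grin3b* did not. At an adjusted *P* under 0.05, 0 of the 6 changed with MCH, beside 35 of all genes tested (0.234%, with 0.0267% higher and 0.207% lower), and 0 of the 6 passed in the DESeq2 or limma voom fits. At an unadjusted *P* under 0.05, 1 of the 6 passed in edgeR, beside 8.5% of all genes.

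*Grin1*, the subunit that every receptor holds (ENSMUSG00000026959), had 691, 709, 654 and 666 CPM in vehicle replicates 1 to 4 and 736, 718, 624 and 619 CPM in MCH replicates 1 to 4. The MCH values surrounded the vehicle values, and replicates 1 and 2 were above replicates 3 and 4 in both treatments. The summed neuron markers given above split in the same direction, and their part in the *Grin1* level was not tested. The means were 680.1 ± 24.9 CPM with vehicle and 674 ± 61.3 CPM with MCH (SD, 4 wells each), a log2 fold change of -0.01 with a standard error of 0.06 (adjusted *P* = 1.00, edgeR's quasi-likelihood *F* test, Benjamini–Hochberg adjusted).

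*Grin2b*, the juvenile glutamate-binding subunit (ENSMUSG00000030209, chr6:135713233-136173511, minus strand), had 471, 429.7, 540.4 and 504 CPM in vehicle replicates 1 to 4. In MCH replicates 1 to 4 it had 797, 598, 543 and 542 CPM. All MCH values were above all vehicle values, but the closest ones, 540.4 CPM in vehicle replicate 3 and 542 CPM in MCH replicate 4, nearly touch.

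In the fit *Grin2b* had a log2 fold change of 0.35 with a standard error of 0.13, with means of 486 ± 47.3 and 619.9 ± 121 CPM, and it did not pass the threshold (adjusted *P* = 0.509, edgeR's quasi-likelihood *F* test, Benjamini–Hochberg adjusted). Wells of the treatments did not overlap for 1 of the 6 subunits, *Grin2b*, and for 6.03% of all genes tested, 3.07% with MCH higher and 2.96% with MCH lower. MCH replicate 1 had the highest *Grin2b* level, and without it the log2 fold change was 0.21 with a standard error of 0.08. Replicates 1 and 2 had a difference in log2 CPM, MCH minus vehicle, of 0.62, against 0.05 for replicates 3 and 4.

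*Grin2a*, the subunit of mature synapses (ENSMUSG00000059003, chr16:9567898-9995560, minus strand), had 125, 112, 123 and 114 CPM with vehicle and 175, 139, 123 and 122 CPM with MCH. MCH replicates 1 and 2 were above all vehicle wells, whereas MCH replicates 3 and 4 lay within the vehicle range. The log2 fold change was 0.24 with a standard error of 0.11 (adjusted *P* = 0.633, edgeR's quasi-likelihood *F* test, Benjamini–Hochberg adjusted), with means of 119 ± 6.66 and 139.7 ± 25.0 CPM. Without MCH replicate 1 it was 0.11 with a standard error of 0.06.

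**Figure D2:**
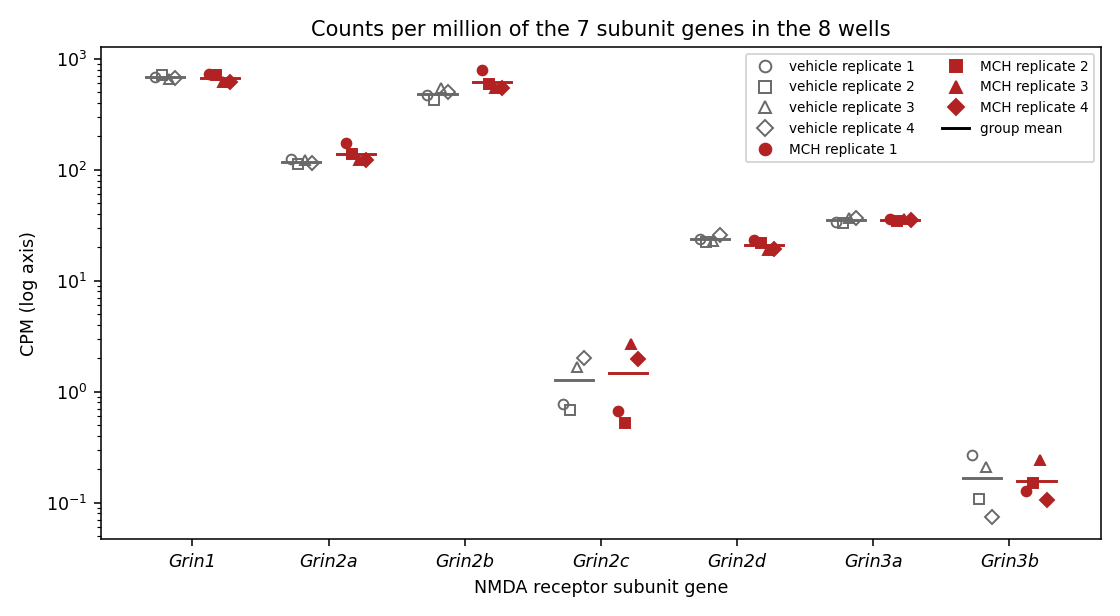
CPM of the 7 subunit genes (log axis) in the 4 vehicle wells (open, grey) and the 4 MCH wells (filled, red), with 1 symbol per replicate number and a line at the group mean. *Grin2b* is the gene whose MCH wells, 542 to 797 CPM, all lie above the vehicle wells, 429.7 to 540.4 CPM, and *Grin2c* splits by replicate number in both treatments.

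*Grin2a* and *Grin2b* have the longest messages of the family, with dominant transcripts of 14634 and 24061 bases, against 3283 to 7431 bases for those of the other subunits. Long messages as a class differed between wells. For the 251 genes tested with a dominant transcript of at least 10000 bases, the median log2 CPM relative to the vehicle mean was 0.30 in MCH replicate 1, 0.05 to 0.09 in the other MCH wells and -0.08 to 0.07 in vehicle wells.

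The median log2 fold change was 0.14 over those long genes, 0.08 without MCH replicate 1 and -0.003 over all genes. Among the long genes, 5.58% had a log2 fold change at or above that of *Grin2b* and 16.3% one at or above that of *Grin2a*, compared with 3.19% and 7.16% of all genes. With an offset for the average transcript length of each gene in each well, the *Grin2b* difference was 0.24 with a standard error of 0.27, and the *Grin2a* difference was 0.19 with a standard error of 0.11. That average is weighted by TPM over all transcripts, so it includes the 241-base *Grin2b* transcript. In vehicle replicate 3 this transcript was given 33.3 TPM on 9.24 estimated reads, and its part in the *Grin2b* value with the offset was not tested. The part of message length in the *Grin2a* and *Grin2b* differences was not tested.

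**Figure D3:**
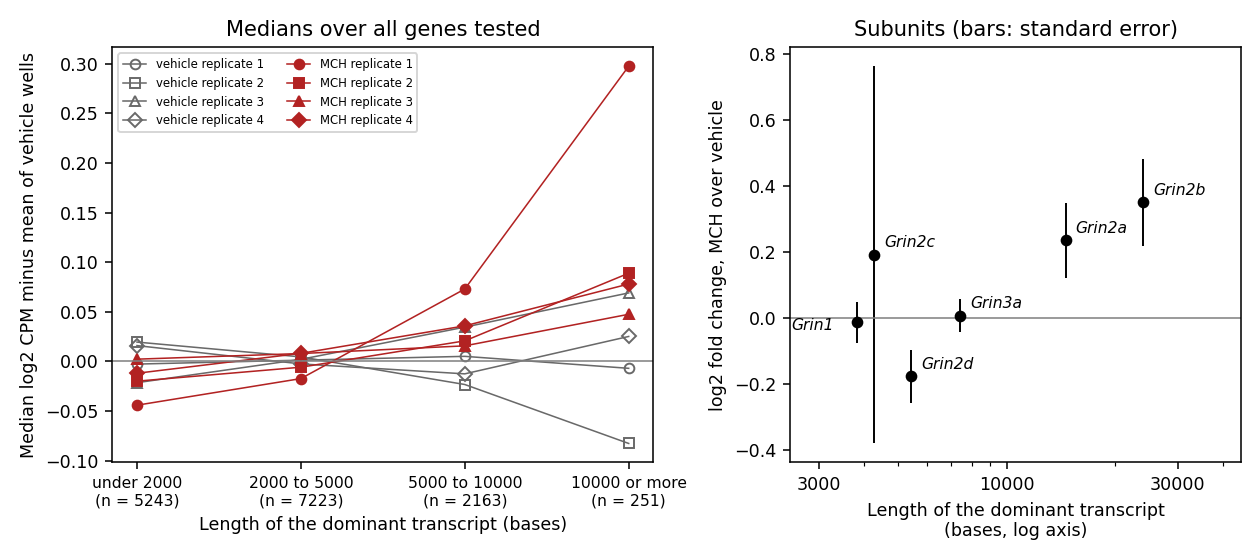
Left, median log2 CPM minus the mean of the vehicle wells, for each well and for genes tested in 4 classes of dominant transcript length. Right, log2 fold change of the 6 subunits tested, with standard errors, against the length of their dominant transcript on a log axis. In the longest class MCH replicate 1 stands at 0.30 and the other wells between -0.08 and 0.09, and the subunits with messages over 10000 bases are *Grin2a* and *Grin2b*.

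*Grin2c*, the GluN2C gene (ENSMUSG00000020734, chr11:115249169-115267243, minus strand), had 0.775, 0.689, 1.66 and 2.01 CPM with vehicle and 0.671, 0.526, 2.70 and 1.97 CPM with MCH, that is, 14 to 78 reads. Replicates 3 and 4 were above replicates 1 and 2 in both treatments, as were the summed astrocyte, oligodendrocyte lineage and fibroblast and vessel markers given above, whose part in the level was not tested. In bulk RNA, a different number of cells of a type and a different amount of RNA per cell cannot be told apart. The treatments overlapped, with a log2 fold change of 0.19 and a standard error of 0.57.

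*Grin2d*, the GluN2D gene (ENSMUSG00000002771, chr7:45831883-45878378, minus strand), had 23.7, 22.1, 22.7 and 25.8 CPM with vehicle and 23.4, 21.8, 18.9 and 19.4 CPM with MCH. MCH replicates 2, 3 and 4 were below all vehicle wells, replicate 2 by a small margin, and MCH replicate 1 lay within the vehicle range. The log2 fold change was -0.18 with a standard error of 0.08 (adjusted *P* = 0.597, edgeR's quasi-likelihood *F* test, Benjamini–Hochberg adjusted), with means of 23.6 ± 1.60 and 20.9 ± 2.08 CPM. Replicates 1 and 2 differed by -0.02 in log2 CPM and replicates 3 and 4 by -0.34, whereas the *Grin2a* and *Grin2b* differences were larger in replicates 1 and 2. GluN2D is typical of interneurons, whose summed markers, given above, were higher in replicates 1 and 2 than in replicates 3 and 4. *Grin2d* had 21.8 to 23.7 CPM in replicates 1 and 2 and 18.9 to 25.8 CPM in replicates 3 and 4. The part of interneurons in the *Grin2d* level was not tested.

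*Grin3a*, which encodes the main GluN3 subunit of the forebrain (ENSMUSG00000039579, chr4:49661611-49845744, minus strand), had 33.9, 33.3, 36.9 and 37.1 CPM with vehicle and 36.3, 34.5, 36.1 and 35.0 CPM with MCH. The MCH wells lay within the vehicle range. The means were 35.3 ± 1.99 and 35.5 ± 0.885 CPM, and the log2 fold change of 0.01 had the smallest standard error of the family, 0.05.

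*Grin3b* (ENSMUSG00000035745, chr10:79970715-79977190, plus strand), the GluN3 gene best known from motor neurons, had 7, 3, 6 and 2 reads with vehicle and 4, 4, 7 and 3 with MCH. These counts lie near 3, the fixed floor taken for detection in every well. *Grin3b* overlaps *Tmem259*, which is on the other strand and had 2812 to 3250 counts, and *Grin2d* overlaps *Kdelr1*, likewise on the other strand, with 1448 to 1782 counts. The library kit keeps strand, but whether the counting used it is not given in the sources used here, so part of these reads may be shared.

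**Figure D4:**
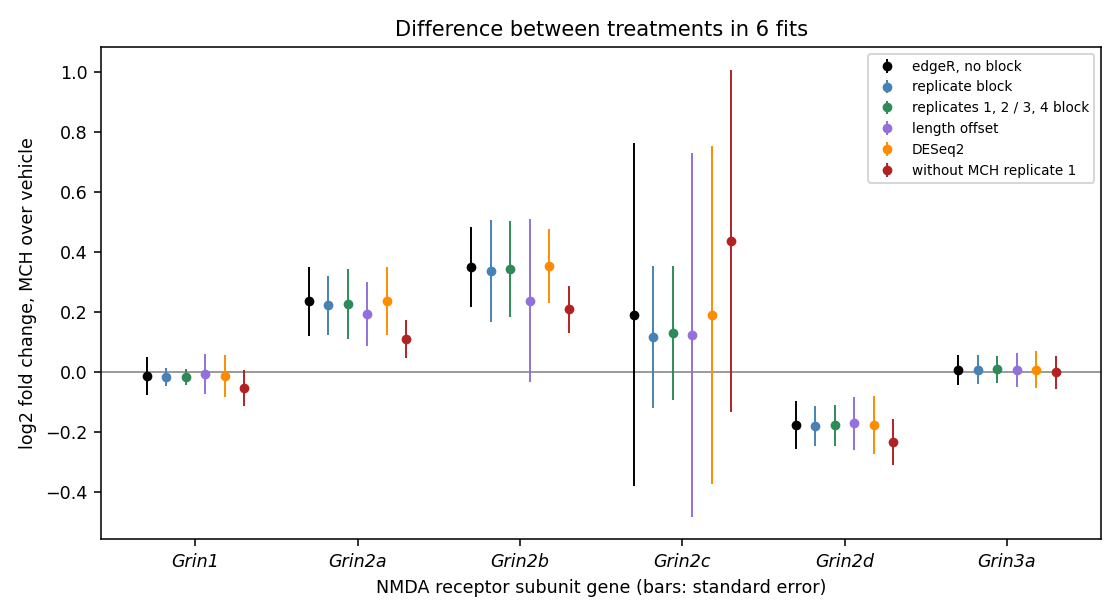
Log2 fold change of MCH over vehicle, with standard errors, for the 6 subunits tested in 6 fits: edgeR without a block, with the replicate number as a block, with replicates 1 and 2 against 3 and 4 as a block, with a length offset, DESeq2, and edgeR without MCH replicate 1. *Grin2b* ranges from 0.21 to 0.35 and *Grin2d* from -0.23 to -0.17, and none passed the threshold in any of these fits.

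The balance between subunits was then tested within wells. The log2 ratio of *Grin2b* to *Grin2a* TPM over all transcripts was 1.33, 0.83, 1.99 and 1.14 with vehicle and 1.60, 1.38, 1.29 and 1.46 with MCH. Its difference of 0.11 was smaller than the spread between vehicle wells, an SD of 0.49 (two-sided exact permutation test over 70 assignments, *P* = 0.714, adjusted over 6 values 0.800). That scale includes the 241-base *Grin2b* transcript, which the level comparison left out. From transcripts of at least 1000 bases the difference was 0.08 with a vehicle SD of 0.16 (exact permutation test, *P* = 0.400), and from gene counts it was 0.12 with a vehicle SD of 0.12 (exact permutation test, *P* = 0.143). The smallest *P* that this design allows is 0.0286. On the first scale the difference was 0.33 without vehicle replicate 3 and -0.05 without vehicle replicate 2.

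The summed GluN2 genes relative to *Grin1* had a log2 ratio of -2.18 ± 0.41 with vehicle and -1.97 ± 0.18 with MCH (exact permutation test, *P* = 0.343, adjusted 0.686). These ratios use TPM over all transcripts, and so include the 241-base *Grin2b* transcript, given 33.3 TPM in vehicle replicate 3. In that well the ratio was -1.60, against -2.23 from transcripts of at least 1000 bases. The difference of 0.21 between treatments moved with single wells and with the scale. It was 0.41 without vehicle replicate 3, where the remaining wells of the treatments did not overlap (exact permutation test, *P* = 0.0286, adjusted 0.171), 0.09 without vehicle replicate 2 and 0.13 without MCH replicate 1. From transcripts of at least 1000 bases, a choice made after the data were seen, the vehicle SD was 0.15. The difference on that scale was 0.27 (exact permutation test, *P* = 0.0571, adjusted 0.171). From gene counts in place of TPM it was 0.31, with the MCH wells, 0.08 to 0.44, all above the vehicle wells, -0.33 to 0.07 (exact permutation test, *P* = 0.0286, adjusted 0.0857). *Grin2b* and *Grin2a*, with the lengths given above, hold most of these counts. The ratio of *Grin3a* to *Grin1* was -5.15 ± 0.13 with vehicle and -5.13 ± 0.12 with MCH (exact permutation test, *P* = 0.686, adjusted 0.800).

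The transcript tables listed 37 transcripts of the 7 genes. Of these, 18 passed the filter, 7 were at 0 in all wells, and 0 changed at an adjusted *P* under 0.05, beside 0% of the 33527 transcripts tested in the same fit (edgeR's quasi-likelihood *F* test, Benjamini–Hochberg adjusted). At an unadjusted *P* under 0.05, 3 of the 18 passed, beside 4.4% of all transcripts. These were *Grin1*-202, *Grin2b*-201 and *Grin2c*-202.

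*Grin1* message was spread over 4 main forms, none of which holds N1. GluN1-4a (*Grin1*-205), the shortest tail, was the most abundant by its mean, with 36.2% of *Grin1* TPM (33.1% to 38.8% across wells). GluN1-1a (*Grin1*-201), with the longest tail, had 27.4% (23.6% to 30.9%), GluN1-3a (*Grin1*-206) had 19.3% (12.9% to 24.5%) and GluN1-2a (*Grin1*-202) had 12.6% (11.6% to 14.7%). The ranges of GluN1-4a and GluN1-1a were apart across wells, whereas those of GluN1-1a and GluN1-3a, and of GluN1-3a and GluN1-2a, overlapped. The 6 transcripts that are not coding held 0.722% to 1.82%.

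The form with N1 that was given reads was GluN1-1b (*Grin1*-204), with 334 to 902 estimated reads. The other forms with N1, GluN1-2b, GluN1-3b and GluN1-4b, were at 0 in all wells. With short fragments, salmon assigns a read of the N1 cassette to 1 of the 4 forms by its model, and N1 and the tail segments lie near opposite ends of the message. The pairing of N1 with a tail is thus an estimate.

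The N1 cassette was in 4.02%, 4.26%, 3.67% and 2.54% of *Grin1* TPM with vehicle and in 3.12%, 3.63%, 1.71% and 2.59% with MCH. The treatments overlapped, and the means were 3.62 ± 0.763% and 2.76 ± 0.820% (two-sided exact permutation test, *P* = 0.20, adjusted over 6 values 0.686). The difference of -0.86 percentage points was -1.22 without vehicle replicate 4, where the remaining wells did not overlap (exact permutation test, *P* = 0.0571, adjusted 0.343), and -0.51 without MCH replicate 3. The large majority of *Grin1* message in these neurons thus lacked the segment printed above as N1, in both treatments.

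The C1 cassette was in 52.2%, 48.5%, 47.1% and 48.4% with vehicle and in 50.6%, 50.2%, 49.3% and 53.3% with MCH. Messages with and without it were nearly equal in every well. The difference of 1.83 percentage points lay within the spread of the vehicle wells, an SD of 2.18 (exact permutation test, *P* = 0.229, adjusted 0.686). Vehicle replicate 1 sets much of that spread, and without it the difference was 2.88 with a vehicle SD of 0.778 and the wells did not overlap (exact permutation test, *P* = 0.0571, adjusted 0.343). It was 1.19 without vehicle replicate 3 and 1.00 without MCH replicate 4.

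The C2′ end was in 57.6%, 56.7%, 51.7% and 55.0% of *Grin1* TPM with vehicle and in 57.9%, 54.3%, 54.5% and 56.5% with MCH. It was the more frequent of the 2 ends in each of the 8 wells, since it had over 50% in every one, and the treatments overlapped (exact permutation test, *P* = 0.800, adjusted 0.800). The precision of these shares rests on 17636 to 23035 *Grin1* reads per well and on salmon's assignment among overlapping transcripts.

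GluN1-2a was the 1 form of the 5 with reads whose share did not overlap between treatments, which held for 2.79% of 26308 tested transcripts of genes with more than 1 transcript tested. It had 13.6%, 13.9%, 12.3% and 14.7% of *Grin1* TPM with vehicle and 11.7%, 11.7%, 11.6% and 11.7% with MCH. The lowest vehicle value is thus 12.3% and the highest MCH value 11.7%. Its estimated counts had a log2 fold change of -0.24 with a standard error of 0.09 and did not pass the threshold (adjusted *P* = 1.00, edgeR's quasi-likelihood *F* test, Benjamini–Hochberg adjusted), and its TPM overlapped between treatments. The shares of the other forms overlapped.

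**Figure D5:**
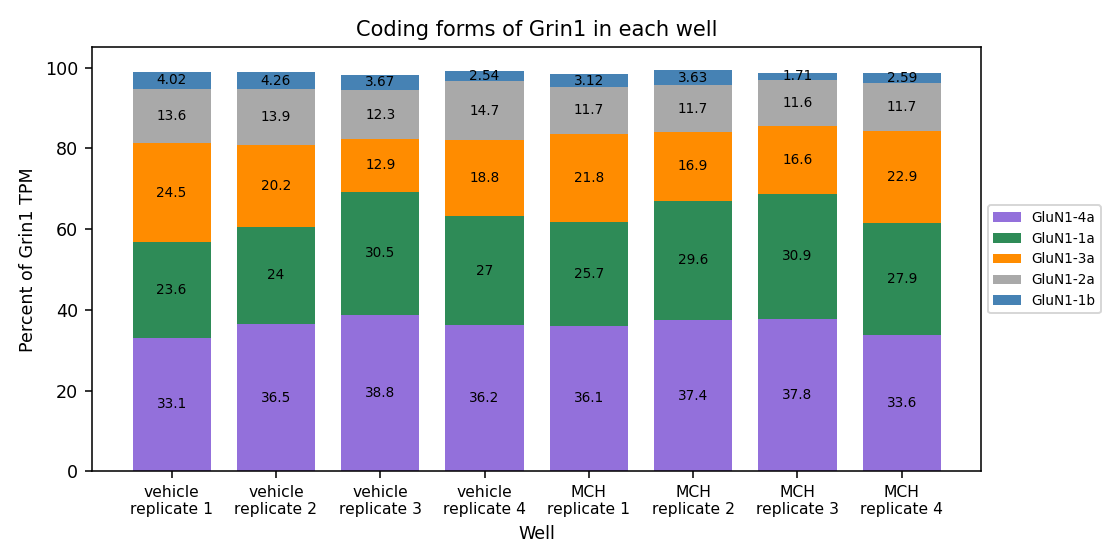
Percent of *Grin1* TPM on the 5 coding forms with reads in each of the 8 wells, stacked, with the value printed in each bar. GluN1-4a ranges from 33.1% to 38.8%, and GluN1-2a from 12.3% to 14.7% with vehicle and from 11.6% to 11.7% with MCH.

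Of the other subunits, *Grin2b* was carried by *Grin2b*-201 (24061 bases, 83.9% of the TPM of the gene by its mean), which had 34.4 ± 3.65 TPM with vehicle and 44.6 ± 8.66 TPM with MCH. A further 14.4% of the gene TPM was on the 241-base transcript, which had at most 9.24 estimated reads in a well. *Grin2b*-201 had 11853 to 24942 estimated reads. The TPM of *Grin2b*-201 did not overlap between treatments, as it did not for 3.98% of all transcripts tested. *Grin2a*-206 had 13.3 ± 0.949 and 15.8 ± 2.79 TPM, *Grin2d*-201 7.41 ± 0.508 and 6.62 ± 0.629 TPM, and *Grin3a*-201 6.57 ± 0.519 and 7.23 ± 0.453 TPM. *Grin2c*-202 had 0, 0, 4.72 and 0 estimated reads with vehicle and 21, 14, 13.2 and 12.8 with MCH. Its TPM did not overlap between treatments either, with 0 to 0.0611 with vehicle and 0.167 to 0.247 with MCH. *Grin2c*-201 had 0 to 64.8 reads. The split of so few reads between 2 like transcripts is uncertain, and the sum of the gene overlapped between treatments, as given above.

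The genes whose log2 CPM followed *Grin2b* most closely over the 8 wells were *Ep400* (Pearson's r = 0.993), *Plxna1*, *Srgap3*, *Rev3l* and *Setbp1* (r = 0.985). The longest transcripts of these 5 genes have 8887 to 10789 bases. Those that followed *Grin1* were *Zfp382* (r = 0.987), *St8sia1*, *Med15*, *Slc7a8* and *Arhgap23* (r = 0.976). These are descriptions over 8 wells that share libraries, depth and the difference between replicates 1 and 2 and replicates 3 and 4.

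Genes that act with the receptor were then counted in 5 lists, 79 of whose 81 genes passed the filter. None changed at an adjusted *P* under 0.05 without a block, whereas 5 did with the replicate number as a block, beside 596 genes in all (3.98%) (edgeR's quasi-likelihood *F* test, Benjamini–Hochberg adjusted). They were *Rph3a*, *Ephb2*, *Ppp1cc*, *Tbr1* and *Celf2*. With replicates 1 and 2 against 3 and 4 as the block, 5 passed as well, beside 4.46% of all genes. By the DESeq2 Wald test 1 passed, *Ppp1cc*, beside 0.651% of all genes. Among the 79 genes, wells of the treatments did not overlap for *Ephb2*, *Ppp1cc*, *Tbr1* and *Hdac2*, beside 6.03% of all genes tested.

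Among 20 anchoring and trafficking partners, 9 were lower and 11 higher in MCH wells (median log2 fold change 0.03, beside -0.003 for all genes), and 2 had an unadjusted *P* under 0.05. Of all genes tested, 8.5% had such a *P*, and that share also stands beside the counts of the lists that follow (edgeR's quasi-likelihood test). *Dlg4*, which encodes PSD-95, the scaffold of GluN2 tails, had 955 and 935 CPM by its means. *Rph3a*, whose product rabphilin 3A binds GluN2A, had 587, 571, 481 and 498 CPM with vehicle and 533, 511, 456 and 459.6 CPM with MCH. Each MCH value was below the vehicle value of its number, while the groups overlapped (log2 fold change -0.13, standard error 0.08, adjusted *P* = 0.748 without a block and 0.0101 with it, edgeR's quasi-likelihood test).

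*Ephb2*, an ephrin receptor that binds GluN1, had 65.8, 63.7, 68.2 and 59.0 CPM with vehicle and 77.3, 70.9, 68.5 and 69.2 CPM with MCH. The groups did not overlap (log2 fold change 0.16, standard error 0.06, adjusted *P* = 0.466 without a block, 0.0450 with the replicate block and 0.0556 with replicates 1 and 2 against 3 and 4 as the block, edgeR's quasi-likelihood test). *Akap9*, the kinase anchor yotiao that binds GluN1 tails with the C1 cassette, had the highest log2 fold change of the list, 0.23 with a standard error of 0.13, and its groups overlapped. Without MCH replicate 1 its value was 0.09 with a standard error of 0.07.

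Of 23 kinases and phosphatases that act on NMDA receptors, 15 were lower and 8 higher, with a median of -0.02, and 1 had an unadjusted *P* under 0.05. *Ppp1cc*, a catalytic subunit of protein phosphatase 1, had 201, 199.8, 188 and 194 CPM with vehicle and 179, 175, 180.0 and 170.4 CPM with MCH. All MCH values were below all vehicle values (log2 fold change -0.15, standard error 0.04, adjusted *P* = 0.182 without a block and 0.00849 with it, edgeR's quasi-likelihood test). *Prkca*, a protein kinase C, had the highest value of the list, 0.10 with a standard error of 0.10.

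Of 12 genes for glycine and D-serine supply, the co-agonists that GluN1 binds, 10 were tested and *Dao* and *Slc6a5* were not. Of the 10, 6 were lower and 4 higher, with a median of -0.05 and 0 at an unadjusted *P* under 0.05. *Srr*, the enzyme that makes D-serine, had 137 and 141 CPM by its means. *Slc7a10* and *Slc1a5*, both amino acid transporters, had the lowest and the highest log2 fold change, -0.31 and 0.18, at 0.549 and 1.78 CPM with vehicle and with standard errors of 0.68 and 0.38.

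Of 12 transcription factors linked to the promoters of subunit genes, 5 were lower and 7 higher, with a median of 0.002, and 2 had an unadjusted *P* under 0.05. *Rest*, a repressor of neuronal genes with *Grin1* among its known targets, had 5.86 CPM in the mean of each treatment. *Tbr1*, which binds the *Grin2b* promoter, had 32.2, 30.4, 26.8 and 31.1 CPM with vehicle and 35.7, 36.8, 34.6 and 35.6 CPM with MCH. All MCH values were above all vehicle values (log2 fold change 0.24, standard error 0.06, adjusted *P* = 0.216 without a block and 0.00920 with it, edgeR's quasi-likelihood test). *Mef2c*, a factor of the MEF2 family, had the lowest value, -0.11 with a standard error of 0.04.

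Of 14 neuronal splicing regulators, 6 were lower and 8 higher, with a median of 0.02, and 1 had an unadjusted *P* under 0.05. *Celf2*, an RNA-binding protein that regulates splicing, had 616, 600.3, 616 and 567 CPM with vehicle and 689, 682, 616 and 634 CPM with MCH. The groups overlapped through MCH replicate 3, which lay just below vehicle replicate 1 (log2 fold change 0.13, standard error 0.05, adjusted *P* = 0.488 without a block and 0.0231 with it, edgeR's quasi-likelihood test). *Hnrnpf*, another RNA-binding protein, had the lowest value, -0.10 with a standard error of 0.07.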

How the data were processed

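The authors mapped and quantified the reads with salmon, within nf-core/rnaseq, on the GRCm38 genome. The deposited gene table holds estimated counts, not scaled for depth or length, and the deposited transcript tables hold estimated counts together with TPM values that salmon corrected for transcript length and library depth. Identifiers were matched to GENCODE vM21, which named 98.8% of genes and 98.7% of transcripts and may differ from the annotation used by the authors.

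After rounding, counts were fitted by edgeR 4.0.16 in R 4.3.3 (TMM, filterByExpr by treatment with a count minimum of 10 and a total minimum of 15, robust quasi-likelihood *F* test, no block, Benjamini–Hochberg adjustment over all features tested, threshold 0.05). CPM use TMM-scaled library sizes, and a standard error is the size of the log2 fold change over the square root of *F*. Ratios and shares were tested by two-sided exact permutation over 70 assignments, adjusted over 6 values. On the other scales the adjustment was over the 3 or 2 values had on that scale. The fit was tested on simulated data. The floor was fixed at 3 counts per well, beside library totals of 26083936 to 31844861 counts.

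Same-numbered wells of the 2 treatments deviated together, with correlations of 0.445 to 0.545, and a block by replicate number was run as an alternative. Wells 1 with 2, and 3 with 4, of opposite treatments correlated as closely (0.475 to 0.521). The correlations therefore do not show that the numbers pair the wells. No replicate pair agreed within sampling noise.

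Alternatives were DESeq2 1.42.0, its size factors, limma 3.58.1 voom, no filter, a length offset, blocks by replicate number or by replicates 1 and 2 against 3 and 4, other scales for ratios and shares, and leaving out each well. Named genes are the 7 subunits, *Grin1* transcripts with at least 5% of its TPM, the leading transcript of other subunits, partners past the threshold with or without the replicate block and the extremes of each list, and the 5 genes most like *Grin1* and *Grin2b*. *Grin1*-204, *Grin2c*-202, the 241-base *Grin2b* transcript, *Dlg4*, *Srr*, *Rest*, *Hdac2* and *Rbfox1* were added after their values were seen. The members and lists were chosen with earlier results of these data known.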

Additional observations from a re-analysis of the deposited data

Results flagged for a closer look

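The *Akap9* level in MCH replicate 1, 93.5 CPM, stood apart from the other 3 MCH wells, which had 65.3 to 67.0 CPM, by a gap over Dixon's 95% critical value for 4 samples. It was the one value so found among 72 groups of 4 wells examined, of which chance alone would give about 1 in 20. Without that well the *Akap9* log2 fold change was 0.09 in place of 0.23. MCH replicate 1 was also the well with the highest *Grin2a* and *Grin2b* levels and the highest median of genes with long messages.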

How the results depend on the processing

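No NMDA receptor subunit gene passed the threshold in any of the 15 alternatives (DESeq2 gave *Grin2c* no adjusted *P*). The log2 fold changes of *Grin2a* (0.11 to 0.30), *Grin2b* (0.21 to 0.42) and *Grin2d* (-0.23 to -0.12) kept their sign when each well was left out in turn. Those smaller than their standard errors did not, with ranges of -0.054 to 0.033 for *Grin1*, -0.28 to 0.49 for *Grin2c*, -0.015 to 0.036 for *Grin3a*, -0.050 to 0.070 for *Grin1*-205, -0.14 to 0.17 for *Grin1*-206, -1.02 to 0.062 for *Slc7a10* and -0.044 to 0.39 for *Slc1a5*, and *Slc7a10* was at 0.37 with the length offset. Likewise the log2 ratio of *Grin2b* to *Grin2a* differed by -0.055 to 0.33, that of *Grin3a* to *Grin1* by -0.030 to 0.059, and the C2′ share by -0.64 to 1.32 percentage points. The 35 genes changed by MCH became 596 with the replicate block, 668 with replicates 1 and 2 against 3 and 4 as a block, 157 with DESeq2, 7 with the length offset and 4 to 29 with a well left out, of which leaving out vehicle replicates 1, 2 or 4 or MCH replicates 2, 3 or 4 gave 4 to 12. Partner genes past the threshold rose from 0 to 5 with the replicate block, 5 with the other block (with *Rbfox1* in place of *Ephb2*) and 1 with DESeq2. Transcripts past the threshold went from 0 to 6 with the block by replicates 1 and 2 against 3 and 4 and to 0 to 1 with a well left out. The cause of these moves was not tested. The replicate block changed no call of a subunit gene or transcript. For the ratios and shares it could make no call, since its 16 assignments allow no *P* under 0.125 (paired exact permutation test). The N1 share could not be had from transcripts with at least 5% of *Grin1* TPM, since no N1 form reaches that share. Depth limits *Grin2c* and *Grin3b*, at 14 to 78 and 2 to 7 reads.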
